A study of Homo sapiens with 9 samples.

Results

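Angiopoietin-like proteins and the lipases they restrain were examined in HepG2 cells given a thyroid hormone receptor ligand. HepG2 is an established human line from a liver tumour that keeps many hepatocyte functions. The genes were ANGPTL8, ANGPTL4, ANGPTL2, LPL, LIPC, LIPG and VLDLR, and their probe sets were those whose array annotation gave exactly 1 symbol, one of these 7. A probe set is the group of short probes that reads 1 transcript region on an Affymetrix array. The rule found 6 probe sets of 22215 that are not array controls, 1 each for ANGPTL8, ANGPTL4, LIPG and VLDLR and 2 for LPL, so 5 of the 7 genes had values, among 11963 genes with a 1-symbol probe set. ANGPTL2 and LIPC had no such probe set and were not analysed here.

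The groups were 10 nM GC-1, 10 nM T3 and vehicle, 3 arrays each, 9 in all. All cells stood in medium whose serum had been depleted of thyroid hormone, and RNA was taken at 24 h. T3 is the active thyroid hormone, and GC-1 (sobetirome) is a synthetic analog that favours the beta form of the receptor. In GC-1 the ring iodines of T3 are replaced by alkyl groups, the ether bridge between the rings by a methylene group, and the amino acid side chain by an oxyacetic acid. A single cell line was used, and the labels do not say whether the replicates were separate cultures, so the p-values rest on the scatter among these arrays alone, and that scatter may be technical.

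Lipoprotein lipase, the product of LPL, splits the triglycerides of circulating lipoproteins at the capillary wall so that tissues can take up fatty acids. Several angiopoietin-like proteins are secreted by liver and fat and hold that enzyme back. ANGPTL4 unfolds it, chiefly in fat during fasting, and ANGPTL8 is induced by feeding. LIPG encodes endothelial lipase, which acts mainly on the phospholipids of high density lipoprotein, and VLDLR encodes a cell surface receptor that takes up triglyceride-rich particles.

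ANGPTL8 and ANGPTL4 both lie on chromosome 19, and since they were the members that rose with both ligands, the 250 bases before each start site are printed here. They come from RefSeq (build GRCh38.p14, plus strand, chr19:11239369-11239618 for ANGPTL8 and chr19:8363905-8364154 for ANGPTL4). Capitals mark the TATA box TATAAA in ANGPTL4 and, in ANGPTL8, CATAAA, a form of it that was added to the search after the sequence had been read.
ANGPTL8 promoter: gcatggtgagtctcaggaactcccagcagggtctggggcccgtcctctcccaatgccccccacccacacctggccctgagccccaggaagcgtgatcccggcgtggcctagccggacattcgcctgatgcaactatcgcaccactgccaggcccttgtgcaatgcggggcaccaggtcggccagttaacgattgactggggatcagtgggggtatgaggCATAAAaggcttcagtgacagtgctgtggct
ANGPTL4 promoter: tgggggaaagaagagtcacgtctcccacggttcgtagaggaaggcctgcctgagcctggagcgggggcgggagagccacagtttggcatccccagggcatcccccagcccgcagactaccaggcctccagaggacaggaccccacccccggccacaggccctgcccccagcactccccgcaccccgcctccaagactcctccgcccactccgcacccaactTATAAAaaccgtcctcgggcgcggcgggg
Both strands were searched for AGGTCA, the half-site that thyroid hormone receptors and related nuclear receptors bind, for GGGTCA, and for direct repeats of AGGTCA with any 4 bases or any 1 base between the copies, each of which also holds the half-site. None was present in either window. The same search found GGGTCA in the windows of ANGPTL2 and LIPG, AGGTCA in that of LIPC, and none of these motifs in VLDLR. LPL had no window to search. Over 35116 promoter windows of the same length, 12.1% held AGGTCA, 12.1% held GGGTCA, 0.0142% and 0.0171% the repeats with 4 and 1 bases between, 10.7% TATAAA and 9.64% CATAAA. The TATA box of ANGPTL4 spans bases -29 to -24 from the start site and CATAAA in ANGPTL8 bases -31 to -26. These windows are short, and the matches are descriptions only.

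Values are log2 signals, so a difference of 1 is a doubling. The arrays of all groups had medians of 7.02 to 7.06. Their interquartile range, a measure of how widely an array's values spread, was 2.83 to 2.85 on GC-1 arrays, 2.99, 2.97 and 2.88 on T3 replicates 1, 2 and 3, and 2.87 to 2.88 on vehicle arrays. T3 replicates 1 and 2 thus stood apart from the other 7 arrays in spread. Without both of them, 539 probe sets were lower with GC-1 (219 with all arrays) and 980 lower with T3 (334 with all arrays). Among 8 measured hepatocyte markers, mean signals were 13.63 to 13.68 on GC-1 arrays, 13.66 to 13.69 on T3 arrays and 13.50 to 13.53 on vehicle arrays. Of these, FGB passed the test with both ligands and APOB with T3, both upward. ALB stood at 14.39 in vehicle, among the brightest probe sets. Markers of endothelial cells (8 measured), macrophages and leukocytes (6), stellate cells and fibroblasts (8) and adipocytes (6) held no member that passed the test with either ligand. CDH5, PTPRC, LUM and ADIPOQ had vehicle signals of 4.83, 4.88, 3.44 and 5.26, each brighter than at most 13.0% of probe sets and among the dimmest of their lists. Other markers were brighter: VWF stood at 6.61 (brighter than 42.2% of probe sets), LYZ at 12.48 (98.5%), ACTA2 at 10.16 (90.0%), COL1A1 at 9.19 (80.3%) and CIDEC at 8.27 (68.6%).

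Both secreted inhibitors of lipoprotein lipase rose with each ligand. ANGPTL8 rose 2.57-fold with GC-1 and 3.19-fold with T3, and ANGPTL4 rose 1.63-fold and 2.02-fold with the same ligands. VLDLR was 1.22-fold higher with GC-1 and 1.13-fold higher with T3, and passed the test with GC-1. Neither the 2 LPL probe sets nor LIPG passed in any comparison. With limma and an adjusted p under 0.05, 3 of 6 member probe sets were higher and 0 lower with GC-1, where 2.80% of all probe sets passed, 1.81% higher and 0.986% lower. With T3, 2 of 6 were higher and 0 lower, where 5.50% of all passed, 4.00% higher. With the ligands averaged, 3 of 6 were higher and 0 lower than vehicle, where 5.53% of all passed, 3.63% higher and 1.90% lower. The median difference over the 6 probe sets was 0.16 with GC-1 and 0.11 with T3, against -0.00433 and -0.015 over all probe sets. Both ligand comparisons share the vehicle arrays. The members were chosen with earlier results of these data known. Their counts therefore do not test whether these genes respond more often than others.

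**Figure D1:**
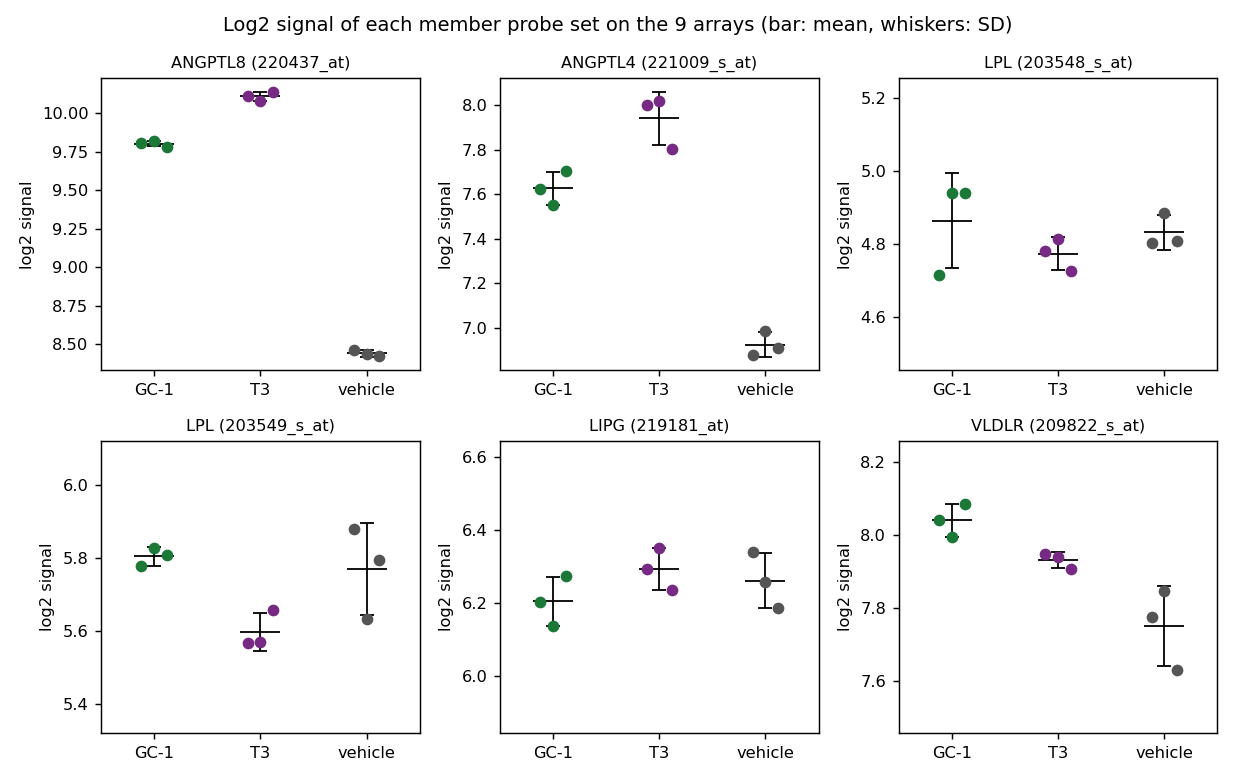
Log2 signal of the 6 probe sets, 1 panel each, on the GC-1, T3 and vehicle arrays. Points are single arrays, horizontal bars group means and whiskers SD (n = 3). ANGPTL8, ANGPTL4 and VLDLR separate all 3 groups, with T3 highest in ANGPTL8 and ANGPTL4 and GC-1 highest in VLDLR. VLDLR lies above vehicle on all 6 ligand arrays, and the panels of LPL and LIPG overlap with vehicle. Axes do not start at 0 and differ between panels.

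ANGPTL8 was read by probe set 220437_at. Its signals were 9.80, 9.82 and 9.78 on the GC-1 arrays, 10.11, 10.08 and 10.14 on the T3 arrays, and 8.46, 8.43 and 8.42 on the vehicle arrays. No group overlapped another: every T3 array lay above every GC-1 array, and every GC-1 array above every vehicle array. The difference from vehicle was 1.36 ± 0.05 for GC-1 (SE, n = 3 per group, limma adjusted p = 9.33e-08) and 1.67 ± 0.05 for T3 (limma adjusted p = 1.41e-08). In each of these comparisons ANGPTL8 had the smallest p of all 22215 probe sets. By size its increase ranked 6 with GC-1 and 3 with T3. The pooled SD within groups was 0.0235, smaller than in all but 1.32% of probe sets (median over all 0.0834).

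All GC-1 arrays or all T3 arrays lying on one side of the vehicle arrays was common, at 26.5% of all probe sets with GC-1 (10.8% above vehicle) and 24.9% with T3 (12.5% above). For 3 arrays against 3, the exact permutation test cannot go below p = 0.1, which ANGPTL8, ANGPTL4 and VLDLR all reached with each ligand. Taking the 6 ligand arrays against the 3 vehicle arrays, these probe sets reached an exact two-sided p = 0.0119, the smallest that this design allows, and 12.3% of all probe sets likewise did not overlap (6.23% above vehicle).

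ANGPTL8 lies within the bounds of DOCK6, a guanine nucleotide exchange factor gene, in the RefSeq annotation. Of 5 DOCK6 probe sets, 221794_at and 55583_at rose, by 0.25 and 0.23 with GC-1 (limma adjusted p = 0.0344 and 0.0481) and by 0.29 and 0.27 with T3 (adjusted p = 0.00889 and 0.0160). The other 3 did not pass, with differences of -0.01 to 0.17 for GC-1 and -0.18 to 0.03 for T3. In vehicle, the 3 that did not pass averaged 5.86, 5.80 and 6.17, while 221794_at and 55583_at averaged 7.35 and 7.67. The differences in DOCK6 were at most 0.29, against at least 1.36 in ANGPTL8. Whether the changes in DOCK6 and ANGPTL8 are linked was not tested.

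ANGPTL4 was read by 221009_s_at, a probe set of a type whose probes can match more than 1 transcript. Its signals were 7.625, 7.552 and 7.703 with GC-1, 8.001, 8.020 and 7.803 with T3, and 6.877, 6.985 and 6.912 with vehicle. The groups again did not overlap, and the lowest T3 array, replicate 3, came nearest to the GC-1 arrays. ANGPTL4 rose by 0.70 ± 0.07 with GC-1 (SE, n = 3 per group, limma adjusted p = 0.000182) and by 1.02 ± 0.07 with T3 (limma adjusted p = 8.52e-06). Its increase ranked 49 with GC-1 and 25 with T3 among all probe sets. Its pooled SD within groups, 0.0879, was near the median. Of the other genes of the angiopoietin and angiopoietin-like family and their receptors, 10 of 14 listed were measured and 0 passed with either ligand, while 2 with GC-1 and 0 with T3 had an unadjusted p under 0.05. Over all 11963 genes, 17.0% with GC-1 and 22.4% with T3 had such a p. Their differences ran from -0.11 to 0.20 with GC-1 and from -0.18 to 0.08 with T3.

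LPL was read by 2 probe sets, both dim and both of the multi-transcript type. Probe set 203549_s_at gave 5.78, 5.83 and 5.81 with GC-1, 5.57, 5.57 and 5.66 with T3, and 5.88, 5.63 and 5.80 with vehicle. The GC-1 arrays lay inside the range of vehicle, and 2 of the 3 T3 arrays lay below it. The difference from vehicle was 0.04 (95% interval -0.11 to 0.18, adjusted p = 0.851) for GC-1 and -0.17 (interval -0.31 to -0.03, adjusted p = 0.159) for T3 in limma. Without vehicle replicate 2, the lowest vehicle array, the T3 difference was -0.24 (adjusted p = 0.0608), and without vehicle replicate 1, the highest, it was -0.12 (adjusted p = 0.423).

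Probe set 203548_s_at of LPL gave 4.71, 4.94 and 4.94 with GC-1, 4.78, 4.81 and 4.73 with T3, and 4.80, 4.89 and 4.81 with vehicle. All groups overlapped, and GC-1 replicate 1 was the lowest of the 9 arrays. The differences were 0.03 (interval -0.11 to 0.18, adjusted p = 0.874) for GC-1 and -0.06 (interval -0.20 to 0.09, adjusted p = 0.671) for T3 in limma. The 2 probe sets were brighter than 22.4% and 7.25% of all probe sets. Whether LPL was expressed at this level was not tested.

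LIPG, read by 219181_at, gave 6.20, 6.14 and 6.27 with GC-1, 6.29, 6.35 and 6.24 with T3, and 6.34, 6.26 and 6.19 with vehicle. The groups overlapped throughout. LIPG was brighter than 34.4% of all probe sets, and whether it was expressed at this level was not tested. The difference was -0.06 (interval -0.19 to 0.07, adjusted p = 0.713) for GC-1 and 0.03 (interval -0.10 to 0.16, adjusted p = 0.808) for T3 in limma. The intervals of LIPG and both LPL probe sets lay within 1.5-fold of vehicle with each ligand, as did those of 98.9% of all probe sets for GC-1 and 98.6% for T3.

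In the annotation VLDLR overlaps VLDLR-AS1, a long noncoding RNA gene on the opposite strand, and another long noncoding RNA gene. It lies wholly inside neither. VLDLR was read by 209822_s_at, which is also of the multi-transcript type. Its signals were 8.043, 7.995 and 8.085 with GC-1, 7.949, 7.941 and 7.907 with T3, and 7.777, 7.847 and 7.630 with vehicle. All 6 ligand arrays lay above all 3 vehicle arrays, and the GC-1 arrays all lay above the T3 arrays. The difference from vehicle was 0.29 ± 0.06 for GC-1 (SE, n = 3 per group, limma adjusted p = 0.0284) and 0.18 ± 0.06 for T3 (limma adjusted p = 0.114). The mean of the ligands lay 0.24 ± 0.05 above vehicle (limma adjusted p = 0.0247). The vehicle arrays spread most, and vehicle replicate 3 was the lowest array. The call for GC-1 was lost without vehicle replicate 1 or 3 or without any 1 of the GC-1 arrays, with differences of 0.23 to 0.31 and adjusted p of 0.0742 to 0.114. The call for the mean of the ligands was lost without vehicle replicate 1 or 3 or GC-1 replicate 1 or 3 (adjusted p of 0.0523 to 0.125), and without T3 replicates 1 and 2 together (adjusted p = 0.0532).

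**Figure D2:**
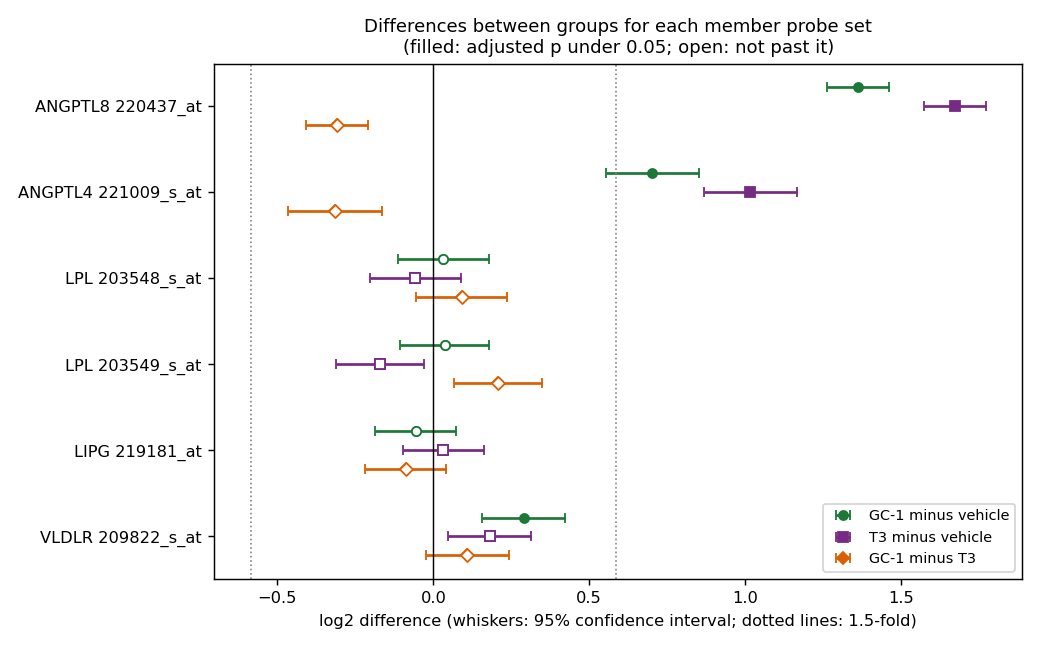
Log2 difference and 95% confidence interval for GC-1 minus vehicle, T3 minus vehicle and GC-1 minus T3 in each of the 6 probe sets. Filled marks passed an adjusted p under 0.05 in limma and open marks did not; dotted lines stand at 1.5-fold. ANGPTL8 lies farthest from zero, at 1.36 with GC-1 and 1.67 with T3, and every GC-1 minus T3 interval lies within the dotted lines.

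Set directly against each other at the matched dose and time, the single pair of compounds gave 0 of 6 calls, as it did over all probe sets (0%; limma, smallest adjusted p = 0.143, 3122 probe sets at an unadjusted p under 0.05). ANGPTL8 and ANGPTL4 were lower with GC-1 than with T3 by similar amounts, ANGPTL8 by a log2 difference of -0.31 (95% interval -0.41 to -0.21, adjusted p = 0.143) and ANGPTL4 by -0.31 (interval -0.46 to -0.16, adjusted p = 0.176). In fold terms the GC-1 signal was 0.754 to 0.865 times the T3 signal for ANGPTL8 and 0.725 to 0.892 times for ANGPTL4. The unadjusted p was 2.83e-05 for ANGPTL8 and 0.000738 for ANGPTL4. VLDLR stood 0.11 higher with GC-1 (interval -0.02 to 0.24, adjusted p = 0.437), and LPL 203549_s_at 0.21 higher (interval 0.06 to 0.35, adjusted p = 0.240). LPL 203548_s_at had a difference of 0.09 (interval -0.06 to 0.24) and LIPG one of -0.09 (interval -0.22 to 0.04). GC-1 and T3 arrays did not overlap in ANGPTL8, ANGPTL4, LPL 203549_s_at and VLDLR, and likewise not in 18.0% of all probe sets (7.90% with GC-1 above, 10.1% with GC-1 below). All 6 intervals lay within 1.5-fold, as did 99.8% of all probe sets, so differences above 1.5-fold between the ligands lay outside the intervals. The intervals of ANGPTL8 and ANGPTL4 lay wholly below equal signal, and that of LPL 203549_s_at wholly above it. Those of VLDLR, LPL 203548_s_at and LIPG included equal signal. The intervals are not adjusted for the number of probe sets.

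Leaving out single T3 arrays moved ANGPTL8 between -0.32 and -0.29 and ANGPTL4 between -0.38 and -0.28, and of these the fit without T3 replicate 3 crossed the threshold. Without T3 replicate 3, ANGPTL8 (-0.29) and ANGPTL4 (-0.38) both passed, at an adjusted p of 0.0346 each in limma, together with 157 probe sets higher and 181 lower over the whole array set; the 181 include both members. With T3 replicates 1 and 2 left out, a choice made after seeing the data that leaves 1 T3 array whose spread is borrowed from the GC-1 and vehicle arrays, ANGPTL8 stood at -0.34 (interval -0.47 to -0.20) and ANGPTL4 at -0.18 (interval -0.35 to -0.00). With the interquartile range of each array as a covariate, ANGPTL8 stood at -0.35 (interval -0.51 to -0.19) and ANGPTL4 at -0.11 (interval -0.32 to 0.09).

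**Figure D3:**
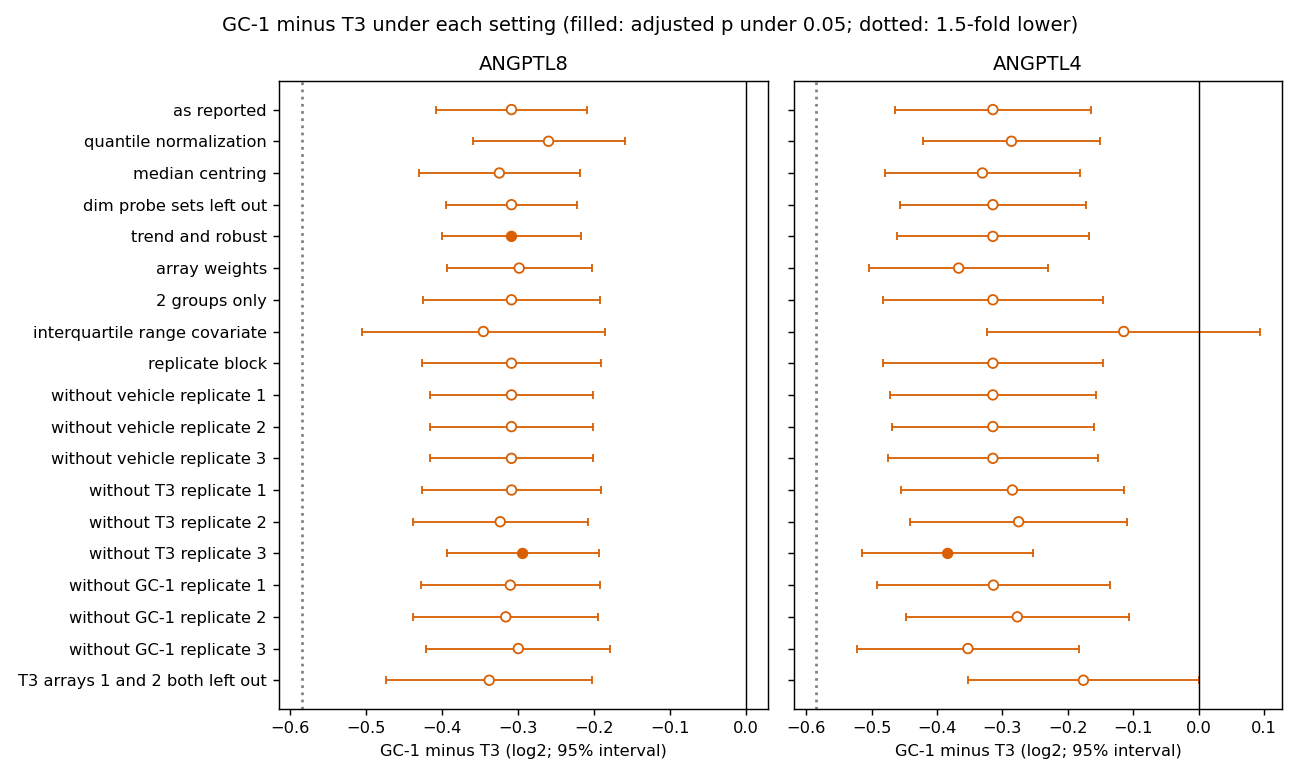
GC-1 minus T3 in log2 units with its 95% interval for ANGPTL8 and ANGPTL4 under each processing setting, from the reported fit at the top to the fit without T3 replicates 1 and 2 at the bottom. Filled points passed an adjusted p under 0.05. ANGPTL8 stays between -0.35 and -0.26, and ANGPTL4 runs from -0.38 to -0.11.

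By the root mean square difference between profiles, each taken as log2 differences from the vehicle mean over the 9 arrays, the genes whose profiles were nearest to that of ANGPTL8 were SCNN1A, TNFSF10 and GSTA1, at 0.107, 0.120 and 0.132 log2 units among 11963 genes. SCNN1A belongs to a sodium channel of epithelia, TNFSF10 encodes a ligand of death receptors and GSTA1 a glutathione transferase. The nearest to ANGPTL4 were MMP11, LOX and TNS1, at 0.0878, 0.0881 and 0.0984. MMP11 encodes a secreted protease, LOX an enzyme that cross-links collagen and TNS1 a focal adhesion protein. MMP11 differed from vehicle by 0.75 with GC-1 and 0.93 with T3, LOX by 0.73 and 0.93, and TNS1 by 0.65 and 0.94 with the same ligands. The measure depends on the size of the differences as well as their pattern, so it favours genes with increases of similar size. These are descriptions, with no test.

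Other genes of lipoprotein handling were read from lists in which a gene is represented by its brightest 1-symbol probe set. The lists were chosen with earlier results of these data known, so their counts are descriptions only. Over all 11963 genes so represented, 2.10% were higher and 1.16% lower with GC-1, and 4.51% were higher and 1.71% lower with T3. Apolipoproteins and particle assembly proteins, which include cofactors and inhibitors of lipoprotein lipase, had 3 of 12 measured members higher with GC-1 and 4 with T3, and none lower. APOC1, an apolipoprotein that slows lipolysis, averaged 12.37 ± 0.04 with GC-1, 12.43 ± 0.11 with T3 and 11.68 ± 0.05 with vehicle (SD, n = 3 each), and rose by 0.69 with GC-1 (limma adjusted p = 9.89e-05) and by 0.75 with T3 (adjusted p = 3.39e-05). Its probe set is of a type prone to cross-hybridization, and near copies of the gene exist. APOC3, an inhibitor of lipoprotein lipase, rose by 0.28 and 0.48, and APOE, a ligand of lipoprotein receptors, by 0.29 and 0.41 (GC-1 and then T3). APOB, the structural protein of very low density lipoprotein, rose by 0.21 with T3 (limma adjusted p = 0.0419) and differed by 0.15 with GC-1 (adjusted p = 0.164). Without any 1 vehicle or GC-1 array, 1 gene of this list passed with GC-1.

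Other lipases and esterases had 23 measured members. With GC-1, 1 was higher and 1 lower, and with T3, 3 were higher and 2 lower. CES1, a carboxylesterase that acts on stored lipid, rose by 0.44 with GC-1 (limma adjusted p = 0.000579) and by 0.64 with T3 (adjusted p = 2.78e-05). PLA2G2A, a secreted phospholipase, averaged 9.35 ± 0.04 with GC-1, 9.09 ± 0.08 with T3 and 9.61 ± 0.05 with vehicle (SD, n = 3 each). It fell by 0.26 with GC-1 (limma adjusted p = 0.0298) and by 0.51 with T3 (adjusted p = 0.000260). PNPLA3, a lipid droplet hydrolase, and CES2 rose by 0.40 and 0.26 with T3, and AADAC, another esterase, fell by 0.37 with T3. Under GC-1 these 3 had differences of 0.21, 0.12 and -0.23 that did not pass. The GC-1 call of PLA2G2A was lost without any 1 vehicle or GC-1 array. With T3, 1 gene of this list in place of 2 was lower without vehicle replicate 1 or 2, T3 replicate 1 or 3, or GC-1 replicate 2, and without T3 replicates 1 and 2 together.

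Genes of lipase folding, cleavage and surface binding had 23 measured members, of which 0 passed with GC-1 (5 at an unadjusted p under 0.05, against 17.0% of all genes) and 1, the sorting receptor SORL1, rose with T3 (0.44, limma adjusted p = 0.00198). LMF1, the chaperone that lipoprotein lipase needs to mature, had differences of 0.04 with GC-1 (adjusted p = 0.903) and 0.23 with T3 (adjusted p = 0.193). Among 21 measured genes of lipoprotein receptors and their adaptors and regulators, 0 passed with GC-1 (6 at an unadjusted p under 0.05, against 17.0% of all genes). In 6 of 19 alternatives, among them the fit without T3 replicate 3, 1 gene of this list was lower with GC-1. With T3, SCARB1, the high density lipoprotein receptor, rose by 0.33 (limma adjusted p = 0.00657), and DAB2, an endocytic adaptor, fell by 0.26 (adjusted p = 0.0152). The call of DAB2 was lost without vehicle replicate 1 or 3 or T3 replicate 1, and without T3 replicates 1 and 2 together 3 genes of this list were lower and 2 higher with T3. GPIHBP1, APOC2 and APOA5 were not analysed here.

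A list of regulators held nuclear receptors and insulin and hypoxia factors, among others. Of its 28 measured members, 8 were higher with GC-1 and 9 with T3, and none lower. Over all genes, 2.10% were higher with GC-1 and 4.51% with T3. The list was chosen with earlier results of these data known, so its counts are descriptions only. Whether its members regulate ANGPTL8 or ANGPTL4 in these cells was not tested. KLF9, a factor known as a thyroid hormone target, averaged 7.43 ± 0.10 with GC-1, 7.47 ± 0.21 with T3 and 6.30 ± 0.12 with vehicle (SD, n = 3 each). CEBPB and CEBPA, which drive hepatocyte genes, rose by 0.72 and 0.36 with GC-1 and by 0.81 and 0.48 with T3. EPAS1, a hypoxia factor, FOXO1, which insulin restrains, and MLXIPL, the carbohydrate response factor, rose by 0.37, 0.31 and 0.37 with GC-1 and by 0.50, 0.41 and 0.51 with T3. PPARD, a fatty acid receptor known to induce ANGPTL4, rose by 0.29 with T3 (limma adjusted p = 0.00945) and differed by 0.22 with GC-1 (adjusted p = 0.0638). PPARA, its relative in liver, differed by 0.23 with GC-1 (adjusted p = 0.121) and by 0.20 with T3 (adjusted p = 0.117). The receptor genes THRA and THRB did not pass, with differences of -0.06 and -0.35 for GC-1 and -0.07 and -0.14 for T3. Without any 1 vehicle or GC-1 array, 4 to 5 members passed with GC-1.

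**Figure D4:**
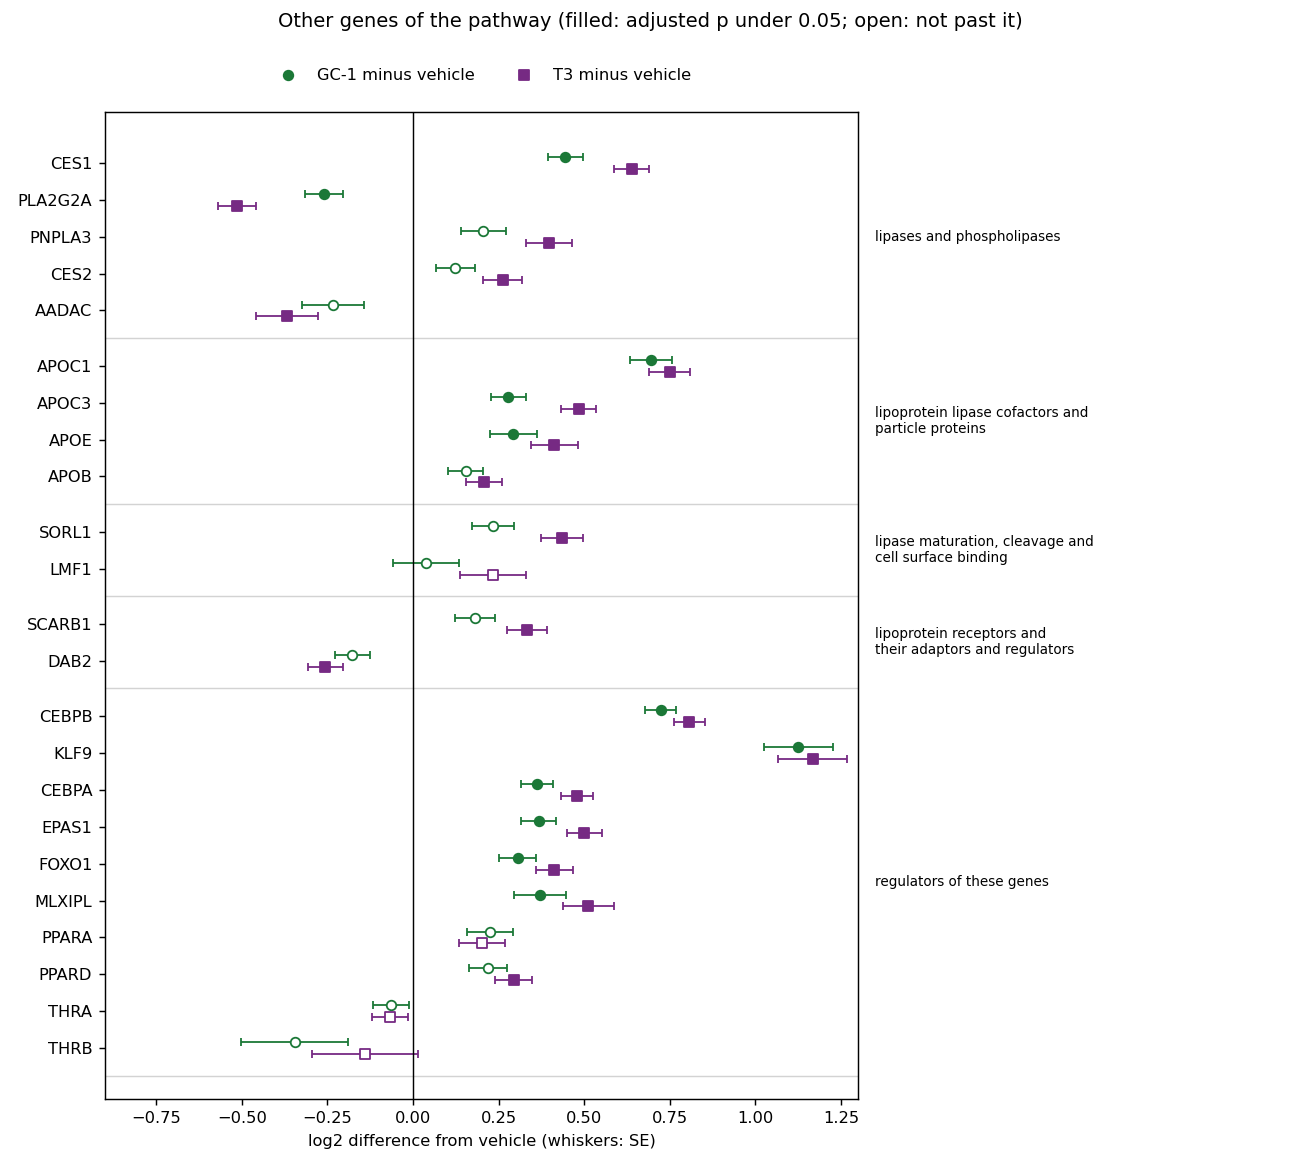
Log2 difference from vehicle with its SE for the named genes of 5 lists, GC-1 above T3 within each gene. Filled marks passed an adjusted p under 0.05 in limma and open marks did not. KLF9 stands highest, at 1.13 with GC-1 and 1.17 with T3, and PLA2G2A lowest with T3, at -0.51. No gene of the angiopoietin family list passed, so that list is not drawn.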

How the data were processed

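HepG2 messenger RNA was measured on 9 Affymetrix 3' expression arrays, grouped and numbered by sample title. Each array's deposited file column holds log2 signals that the authors made with RMA (no version stated), per the submitters' processing notes. The log base was inferred from the values (3.15 to 14.6 on all arrays), and fold changes depend on it. No scanner files were used, so detection and slide were not examined.

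Of 22277 probe sets, 62 controls were left out. A single model of group means over all 9 arrays was fitted by lmFit and moderated by eBayes (limma version 3.58.1 under R version 4.3.3), giving two-sided p-values with Benjamini-Hochberg adjustment over all 22215 probe sets. Intervals are 95%. A simulation with independent noise checked only that the fit returns differences of the size that was added. It does not bear on the calls made here. The number of arrays limits the precision, and no 2 arrays held identical values.

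Every member is named. Of each list, genes past the threshold with either ligand are named, at most 6 by the smallest p in the ligand mean, beside LMF1, PPARA, PPARD, THRA and THRB. The 3 genes with the nearest profile are named for ANGPTL8 and ANGPTL4. Hepatocyte, endothelial and other marker genes, HNF4A and CD68 among those not analysed, check the cell type; marker and DOCK6 values were chosen to describe. Members and lists were chosen with earlier results of these data known.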

Additional observations from a re-analysis of the deposited data

How the results depend on the processing

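ANGPTL8 and ANGPTL4 kept their direction and passed under all 18 alternatives in both ligand comparisons, between 1.35 and 1.39 (GC-1) and 1.65 and 1.70 (T3) for ANGPTL8 and between 0.66 and 0.76 (GC-1) and 0.87 and 1.09 (T3) for ANGPTL4. Over 24 member differences and 414 recomputed values, 387 kept direction and side of the threshold, 12 no longer passed (all of VLDLR), 3 newly passed and 12 changed sign. The count of member probe sets called between the ligands, 0, was 1 (ANGPTL8, adjusted p = 0.0131) with eBayes trend and robust, and 0 to 2 when single replicates were left out. Signs changed only in LPL and LIPG, none of them called. GC-1 minus vehicle ran from -0.0055 to 0.108 in LPL 203548_s_at and from -0.0323 to 0.0917 in LPL 203549_s_at when single replicates were left out. T3 minus vehicle in LIPG ran from -0.00533 to 0.0712, and was -0.0237 with the interquartile range as covariate and -0.0247 without T3 arrays 1 and 2. The ligand mean minus vehicle ran from -0.0318 to 0.0248 in LPL 203548_s_at, where it was 0.0103 with array weights, and from -0.0498 to 0.0267 in LIPG. The cause of these changes was not tested.

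With the replicate number as a block, 2 of 6 member probe sets passed with GC-1, 2 with T3 and 2 in the ligand mean, against 3, 2 and 3 without it, since VLDLR (0.29, adjusted p = 0.0727) no longer passed. Same-numbered arrays did not deviate together (r from -0.26 to 0.08 over 9 pairs), so the numbers were not taken to pair the samples. Over the 18 pairs with different numbers r ran from -0.30 to 0.29, with 2 pairs above 0.1. Those were T3 replicate 3 with GC-1 replicate 1 (0.29) and T3 replicate 2 with GC-1 replicate 3 (0.26). A block by replicate number does not model such pairs, and their cause was not tested. The block gave 264 higher and 83 lower probe sets with GC-1 and 171 lower with T3.

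Over all alternatives the counts over all probe sets ran from 214 to 706 higher and 54 to 729 lower with GC-1 (403 and 219 as reported) and from 543 to 1287 higher and 112 to 1152 lower with T3 (888 and 334), and from 454 to 1171 higher and 125 to 1458 lower in the ligand mean (806 and 422). In the lists, genes higher with GC-1 ran from 0 to 1 in the angiopoietin family (0 as reported), 1 to 5 in particle proteins (3) and 4 to 10 in regulators (8), and genes higher with T3 from 3 to 7 in particle proteins (4) and 1 to 5 in lipase maturation (1). Genes lower with T3 ran from 1 to 2 in lipases (2) and 0 to 3 in receptors (1). Without T3 arrays 1 and 2 the ligand mean gave 1402 lower, and T3 gave 7 higher regulators (9) and 4 higher genes of lipase maturation. With dim probe sets left out, 52% of GC-1 calls were higher, against 64.8%, and with the covariate 44.7% of T3 calls, against 72.7%. LPL and LIPG fall out with dim probe sets and have no value there. Signal over background limits what can be said of LPL and LIPG.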
